A study of Mus musculus with 7 samples.

Results

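The genes described here are 50 genes of mitosis and DNA replication, measured by RNA-seq in papillomas from 4 control (CTR) and 3 *Nanog*-overexpressing (TG) mice. They were chosen by symbol, after results of these same papillomas were known, and every member was found among the 23122 symbols kept from the files. Of the 50 members, 32 act mainly in mitosis and 18 in DNA replication and its E2F control. All 50 averaged 0.5 FPKM or more over the 7 papillomas and were kept, as were 12299 symbols in all. FPKM is the read count scaled to transcript length and to library size, so levels can be compared between genes.

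The papillomas were benign skin tumours raised on the backs of age-matched C57Bl/6 mice with DMBA, a mutagen, and TPA, a tumour promoter. Both genotypes carried the tetO-Nanog transgene and drank doxycycline (DOX, 2 mg/ml) for the whole protocol. TG mice also carried K5-rtTA, the DOX-dependent transactivator under the keratin 5 promoter, whereas CTR mice lacked the transactivator. Each papilloma came from a different mouse and was collected when the protocol ended or at the humane endpoint, so the papillomas need not have had the same age. The keratin 5 promoter is active in basal keratinocytes of stratified epithelia, where the transgene is meant to be driven. Whether stroma, muscle or leukocytes of the papillomas expressed it cannot be read from values of whole papillomas.

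Cells divide in an ordered cycle in which S phase, when DNA is copied, and M phase, when chromosomes are separated, use different sets of proteins. S-phase genes are switched on by E2F factors at the G1/S transition, and mitotic genes follow in G2 under B-MYB, FOXM1 and the MuvB complex, so mRNAs of both classes mark dividing cells. In normal interfollicular epidermis division is largely kept to the basal layer, while papillomas also hold dividing cells above it.

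*Nanog* was counted at 36.9, 57.4 and 66.9 FPKM in TG 1 to 3 and at 2.70, 2.84, 12.7 and 3.34 FPKM in CTR 1 to 4, so the groups did not overlap and no label was contradicted. The depth implied by the width of the deposited confidence intervals ranged from 10075778 to 15710864 reads per papilloma, with CTR 3 and TG 1 the deepest. All 8 basal keratinocyte markers were above 0 in every papilloma, and their summed level was 6663 to 9912 FPKM in CTR and 6901 to 12965 FPKM in TG. TG 3 stood apart. Its 8 skeletal muscle markers summed to 634.5 FPKM against at most 4.93 FPKM in the other 6 papillomas, where *Ckm*, *Myh4*, *Tnnt3* and *Tnnc2* were at 0 in at least 1. The 6 fibroblast markers summed to 677.9 FPKM in TG 3 against at most 128.6 FPKM elsewhere, and the 2 pan-leukocyte markers to 23.7 FPKM against at most 7.07 FPKM. Results are therefore also given without TG 3. In the files 8 members overlap another locus and their reads may be shared: *Ccna2* with *Exosc9*, *Cdc20* with *Elovl1*, *Foxm1* with *4933413G19Rik*, *Kif20a* with *Brd8* and *Cdc23*, *Nusap1* with *Oip5*, *Mcm7* with *Mir106b*, *Mir25* and *Mir93*, *Gins2* with *Gse1*, and *Rfc4* with *Eif4a2*.

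Across the 50 members, mRNA levels were lower on average in TG papillomas, by small amounts and with broad overlap between mice. The mean log2(FPKM + 0.5) was lower in TG for 48 of 50 members, beside 40.0% of all genes tested. The median difference was -0.27 over the members and 0.06 over all genes. The exceptions were *Foxm1*, at 0.00, and *Mcm6*, at 0.01. Both turned negative under upper-quartile scaling and under quantile normalization, where all 50 members were lower. In these settings 49.7% and 55.1% of all genes were lower, and the median of all genes was 0.00 and -0.03. Every TG papilloma lay below every CTR papilloma for 5 members (*Ccna2*, *Fam83d*, *Rrm2*, *Cdt1* and *Rfc4*), beside 2.23% of all genes, and for none was it the other way round, beside 4.93%. In each of the 5 the gap was narrow: the deposited confidence intervals of the highest TG and the lowest CTR papilloma overlapped. Because the members were proposed with this contrast known, these counts describe the list and were not tested. Across all 12299 genes limma called 0 genes higher (0.00%) and 0 lower (0.00%) after adjustment. The smallest adjusted p of any gene was 0.40 (limma), so even *Nanog*, the induced transgene, whose groups did not overlap, was not called. With 4 and 3 mice, a count of 0 after adjustment, here and for the lists below, is therefore not evidence of no change. At an unadjusted p under 0.05 it called 598 genes higher (4.86%) and 241 lower (1.96%), a split that was 515 and 418 under upper-quartile scaling and 403 and 551 under quantile normalization. In tissue of mixed cells, fewer dividing cells and less of these mRNAs per dividing cell cannot be told apart.

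**Figure D1:**
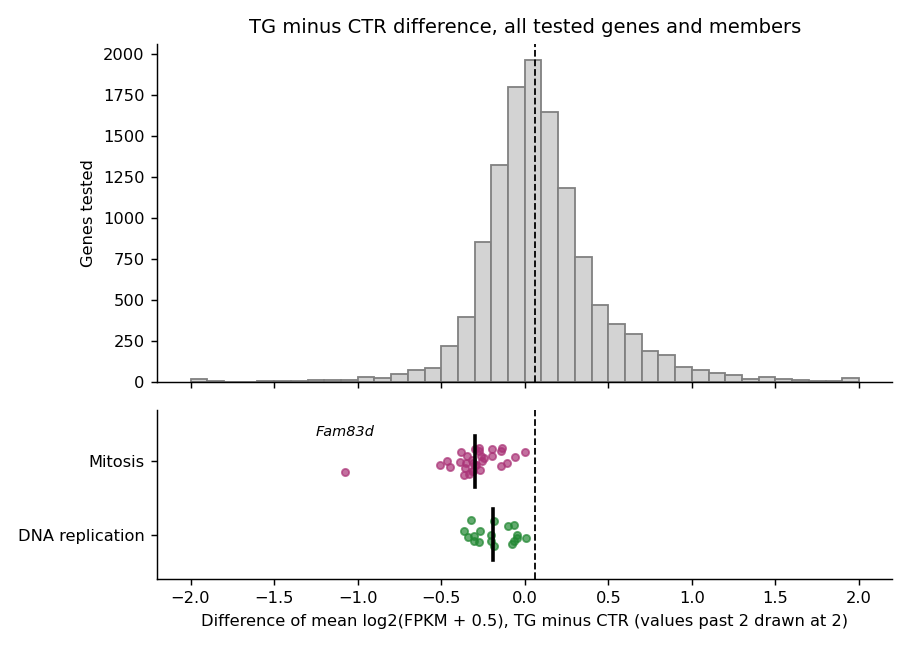
Difference of mean log2(FPKM + 0.5), TG minus CTR, for all 12299 tested genes (upper panel, number of genes in each bin) and for each mitosis and DNA replication member (lower panel, points, with a bar at the class median). The dashed line is the median of all genes, 0.06; every member lies to its left, with class medians of -0.30 and -0.19 and *Fam83d* alone beyond -1.

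The spread within the CTR group was as large as these differences. The median standard deviation of log2(FPKM + 0.5) over the members was 0.31 in CTR and 0.30 in TG, where all genes had 0.25 and 0.33. The members moved together from mouse to mouse. CTR 1 held the highest CTR value for 43 of 50 members (86.0%), while it did so for 34.5% of all genes. CTR 2 held the lowest CTR value for 42 members (84.0%), against 47.6% of all genes. In TG, TG 2 was lowest for 34 members (68.0%), against 34.4% of all genes, and TG 3 was highest for 30 (60.0%), close to the 59.5% seen over all genes. Taking all 7 papillomas, CTR 1 was the highest for 38 members and TG 2 the lowest for 29. Of all 12299 genes, CTR 1 was the highest for 1823 and TG 2 the lowest for 1978.

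The same order is seen when the members are averaged. The mean log2 value of the 32 mitosis members, relative to the CTR mean, was 0.38, -0.38, -0.01 and 0.01 in CTR 1 to 4 and -0.28, -0.57 and -0.06 in TG 1 to 3. On this scale TG 1 and TG 3 were within the CTR range and TG 2 was below it. For the 18 DNA replication members the averages were 0.23, -0.38, 0.04 and 0.11 in CTR and -0.12, -0.39 and -0.05 in TG, and TG 2 was again the lowest papilloma, only just below CTR 2. The TG minus CTR difference of these averages was -0.30 for mitosis (SD 0.31 in CTR, n = 4, and 0.25 in TG, n = 3) and -0.19 for DNA replication (SD 0.26 and 0.18). On this scale neither difference exceeded the SD of the CTR mice.

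The mean log2 value of all genes also moved between papillomas, and the place of TG 3 turned on it. It is not a total: the summed FPKM of these genes was lowest in TG 3, at 336675 against 348381 to 426845 elsewhere. The mean log2 value of all 12299 genes, relative to the CTR mean, was 0.01, -0.12, 0.04 and 0.07 in CTR 1 to 4 and -0.01, 0.00 and 0.30 in TG 1 to 3. Less this shift, the mitosis averages were 0.37, -0.27, -0.05 and -0.05 in CTR and -0.27, -0.57 and -0.36 in TG. TG 2 and TG 3 were then below every CTR papilloma, and TG 1 was level with CTR 2. Less the median of all genes instead of the mean, TG 1 stood at -0.25, level with CTR 2 at -0.25, and TG 3 at -0.30. The replication averages less the mean of all genes were 0.21, -0.26, 0.00 and 0.05 in CTR and -0.11, -0.39 and -0.35 in TG, so TG 2 and TG 3 were below the CTR range and TG 1 within it. The TG minus CTR difference was then -0.40 for mitosis (SD 0.26 in CTR and 0.15 in TG) and -0.28 for replication (SD 0.20 and 0.15). This scale was chosen after the data were seen, and the averages were not tested. TG 3, with the shift of 0.30, is also the papilloma with high muscle, fibroblast and leukocyte markers. The part of these tissues in that shift, and so in the place of TG 3 on this scale, was not tested.

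**Figure D2:**
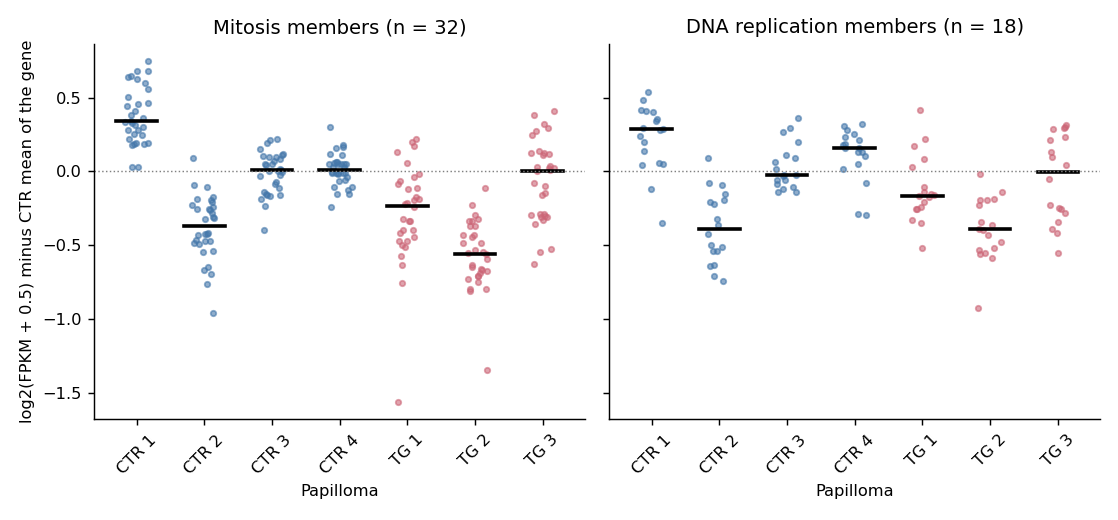
Each point is 1 member's log2(FPKM + 0.5) in a papilloma minus its mean over the 4 CTR papillomas, for the 32 mitosis members (left) and the 18 DNA replication members (right), and bars are medians over members. CTR 1 sits high and CTR 2 and TG 2 low in both panels. TG 3 sits near the CTR mean although the mean log2 value of all genes was 0.30 higher in that papilloma.

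On average the mitosis members were lower in TG relative to the replication members. The mitosis average minus the replication average was 0.15, -0.01, -0.04 and -0.10 in CTR 1 to 4 and -0.16, -0.17 and -0.02 in TG 1 to 3. TG 1 and TG 2 lay below all CTR papillomas, but TG 3 lay within their range. The group difference was -0.12 (SD 0.11 in CTR, n = 4, and 0.09 in TG, n = 3), about the size of the CTR spread, and was not tested.

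Counting error was small beside the differences between mice. The coefficient of variation over CTR mice had a median of 23.7% over the members, and the counting error implied by the deposited intervals had a median of 4.60%. For all 50 members the coefficient of variation over CTR mice was above the implied counting error, although the implied reads behind a value ran from 41.2 to 4932. For *Ccnb2* they were 6.05% and 5.16%, and with 4 mice so small an excess does not show variation beyond counting. The highest CTR value was between 1.16 times the lowest (*Ccnb2*, a B-type cyclin) and 3.39 times the lowest (*Prc1*, which bundles microtubules of the central spindle), with a median of 1.72 times.

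**Figure D3:**
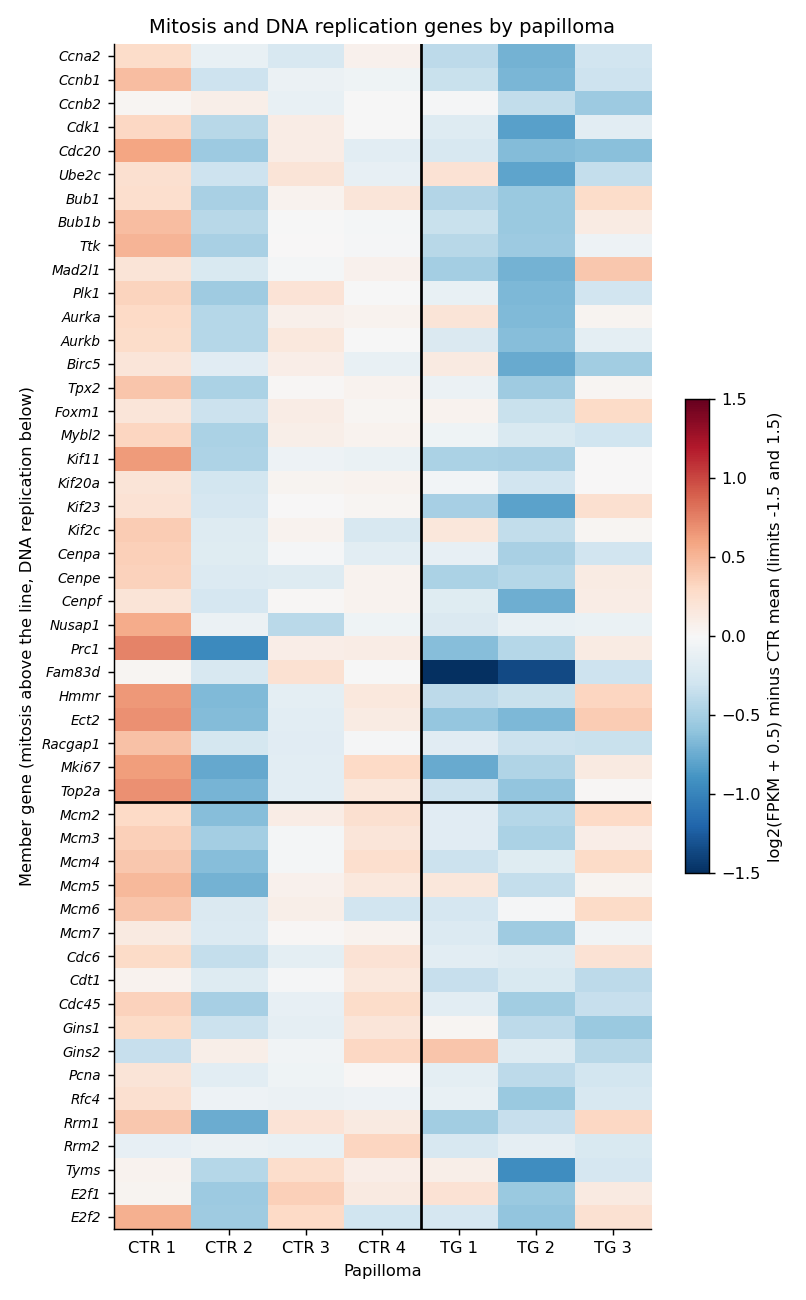
Colour gives log2(FPKM + 0.5) of each member (rows, mitosis above the line and DNA replication below) in each papilloma (columns) minus the member's CTR mean, from -1.5 in blue to 1.5 in red. The CTR 1 column is mostly red, the CTR 2 and TG 2 columns mostly blue, and the darkest cells are *Fam83d* in TG 1 and TG 2.

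Promoter sequence, which was not used to choose the members, differed between the mitosis and the replication class. Windows of 250 bases before to 50 after the transcription start were taken from RefSeq (GRCm38.p6). They were found for 42 of 50 members in 46 windows, since some genes have several starts, and there was no entry for *Aurkb*, *Ccna2*, *Foxm1*, *Gins1*, *Gins2*, *Kif20a*, *Mcm4* and *Tpx2*. Exact matches on both strands were sought to CCAAT, the box bound by NF-Y, to TTTGAA, the cell cycle gene homology region (CHR) read by MuvB complexes, and to any of 4 E2F words, TTTCCCGC, TTTGGCGC, TTTCGCGC and TTCCCGCC. The E2F words can overlap each other on either strand, and a window counted once. The stretches below run up to the base before the start, and they show a CHR near CCAAT boxes in mitotic genes and E2F words in replication genes. Capitals mark the CCAAT box (CCAAT or ATTGG), the CHR (TTTGAA or TTCAAA) and E2F words on either strand.
Fam83d, chr2:158767939-158768098, + strand: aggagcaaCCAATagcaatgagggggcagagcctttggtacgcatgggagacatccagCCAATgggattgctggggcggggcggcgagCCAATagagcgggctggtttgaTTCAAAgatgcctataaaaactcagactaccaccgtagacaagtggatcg
Cdc20, chr4:118437344-118437405, - strand: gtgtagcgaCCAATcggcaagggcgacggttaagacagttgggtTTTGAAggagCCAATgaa
Cdk1, chr10:69352913-69353052, - strand: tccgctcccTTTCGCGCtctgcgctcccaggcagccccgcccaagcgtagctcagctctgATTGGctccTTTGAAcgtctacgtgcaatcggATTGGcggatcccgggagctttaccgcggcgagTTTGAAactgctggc
Top2a, chr11:99024190-99024299, - strand: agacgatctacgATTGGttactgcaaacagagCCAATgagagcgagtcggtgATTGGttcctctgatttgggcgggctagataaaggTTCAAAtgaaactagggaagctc
Mcm6, chr1:128359706-128359825, - strand: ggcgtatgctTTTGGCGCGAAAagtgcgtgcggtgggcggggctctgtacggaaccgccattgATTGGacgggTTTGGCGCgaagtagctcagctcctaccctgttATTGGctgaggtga
Mcm5, chr8:75109349-75109508, + strand: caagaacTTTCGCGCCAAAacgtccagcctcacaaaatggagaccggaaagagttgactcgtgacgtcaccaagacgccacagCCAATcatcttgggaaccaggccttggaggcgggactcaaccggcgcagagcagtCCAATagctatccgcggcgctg
Rrm1, chr7:102441595-102441694, + strand: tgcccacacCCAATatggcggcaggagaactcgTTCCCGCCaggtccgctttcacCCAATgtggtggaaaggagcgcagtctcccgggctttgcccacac

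In *Mcm6* and in *Mcm5* a pair of E2F words on opposite strands share bases and form a single run of capitals. *Fam83d* had 3 CCAAT boxes and then a CHR, and *Mcm6* had 3 E2F words and 2 CCAAT boxes. Motif content was not set against the size of the expression difference.

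Over the 29 windows of mitosis members, 24 (82.8%) held a CCAAT box, 22 (75.9%) a CHR, 21 (72.4%) both, and 1 (3.45%), that of *Cdk1*, an E2F word. Over the 17 windows of replication members, 12 (70.6%) held a CCAAT box, 3 (17.6%) a CHR, 3 (17.6%) both and 9 (52.9%) an E2F word. Of all 32851 windows in the table, 37.4% held a CCAAT box, 17.9% a CHR, 6.95% both and 3.49% an E2F word. CHR and CCAAT box thus occurred together mainly in the mitosis windows, and E2F words mainly in the replication windows. The short CCATTA, a core bound by the NANOG homeodomain, was in 2 mitosis windows (6.90%, *Plk1* and *Ube2c*) and 1 replication window (5.88%, *Tyms*), beside 7.73% of all windows. A match is a run of letters and not evidence of binding, and a window without one says nothing of other sequences or distances.

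**Figure D4:**
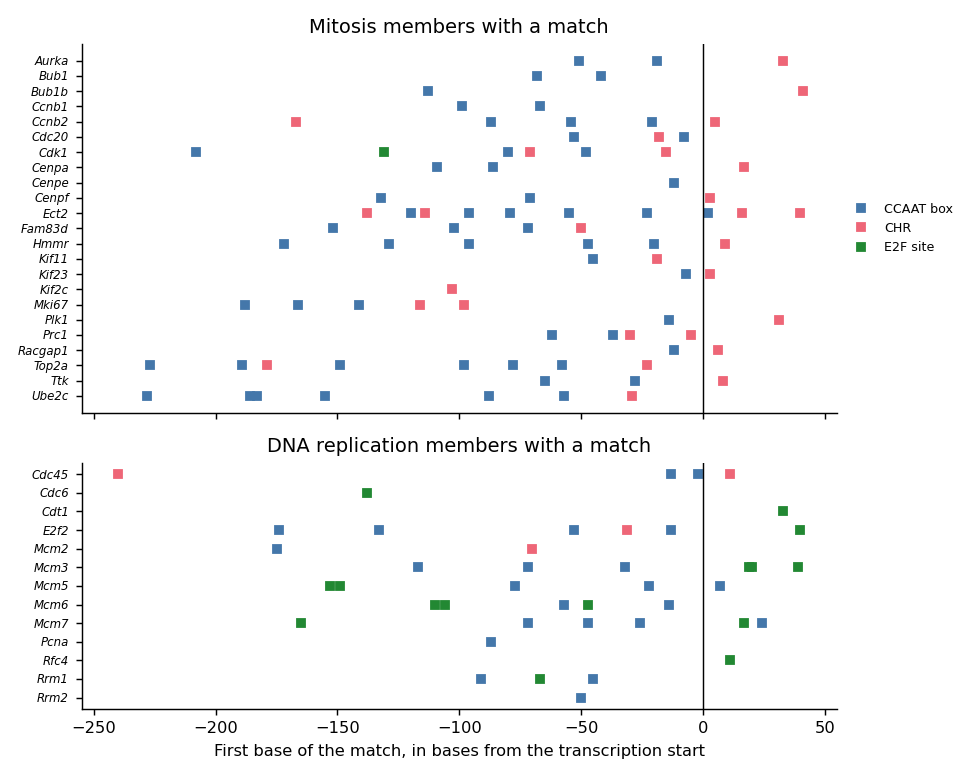
Position of the first base of each CCAAT box (blue), CHR (pink) and E2F word (green) in the promoter windows of mitosis members (upper) and DNA replication members (lower) with a match, in bases from the transcription start (vertical line, 0). Genes with several starts are drawn on 1 row; CHR matches fall in the upper panel apart from *Cdc45*, *E2f2* and *Mcm2*, and E2F words in the lower one apart from *Cdk1*.

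The cyclins and Cdk1, which together drive entry into mitosis, had a median difference of -0.42 over 4 members. *Ccna2* (chr3:36564865-36571996), the A-type cyclin of S and G2 phase, was at 25.0, 19.0, 17.4 and 21.6 FPKM in CTR 1 to 4 and at 15.5, 12.3 and 16.7 FPKM in TG 1 to 3. All TG papillomas were below all CTR papillomas, by a narrow gap between TG 3 and CTR 3, and the log2 difference was -0.47. *Ccnb1*, the main mitotic cyclin, was at 35.3, 20.4, 24.0 and 24.4 FPKM in CTR and 20.1, 15.6 and 20.4 FPKM in TG. CTR 1 was far above the rest, TG 3 met CTR 2, and the log2 difference was -0.45. *Cdk1*, the kinase that both cyclins activate, was at 20.7, 12.2, 17.98 and 16.4 FPKM in CTR and 14.4, 9.21 and 14.8 FPKM in TG. TG 2 was the lowest papilloma and CTR 2 lay among the TG values, with a log2 difference of -0.39. *Ccnb2* differed by -0.31, with CTR values in a narrow range of 14.97 to 17.3 FPKM and TG values of 10.9 to 16.03 FPKM.

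The anaphase-promoting complex (APC/C) ends mitosis by marking cyclin B and securin for destruction, and its 2 members were among the most abundant of the list. *Cdc20*, its activator, was at 59.9, 26.8, 42.5 and 35.4 FPKM in CTR and 33.3, 25.0 and 25.3 FPKM in TG. The CTR values spanned 2.23-fold, TG 1 lay above CTR 2, and the log2 difference of -0.51 was the second largest of the list in size. *Ube2c*, the ubiquitin-conjugating enzyme of the complex, differed by -0.31, and TG 1 at 54.4 FPKM was as high as the upper CTR values.

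The spindle checkpoint holds anaphase until all chromosomes are attached, and its 4 members had differences from -0.35 (*Ttk*, the kinase at the head of the checkpoint) to -0.24 (*Bub1*, a kinetochore kinase). *Bub1b*, which encodes the inhibitor BUBR1, differed by -0.26. *Mad2l1*, which binds CDC20 to block it, differed by -0.27, but its highest value of all was in TG 3, at 19.2 FPKM, and its lowest in TG 2, at 8.59 FPKM. The 4 genes overlapped between the groups.

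The mitotic kinases and their partners had a median difference of -0.33 over 5 members. *Plk1*, the polo kinase that acts from mitotic entry to cytokinesis, was at 16.9, 9.03, 15.5 and 13.2 FPKM in CTR and 12.3, 8.14 and 10.8 FPKM in TG. TG 1 and TG 3 fell between CTR 2 and CTR 4, and the log2 difference was -0.36. *Aurkb* and *Birc5* (survivin), both of the chromosomal passenger complex that corrects attachments, differed by -0.33 and -0.38. *Birc5* was at 30.8 FPKM in TG 1, within the CTR range of 24.9 to 31.9 FPKM, and at 16.5 and 19.4 FPKM in TG 2 and TG 3. *Aurka*, the centrosomal Aurora kinase, differed by -0.14 and its activator *Tpx2* by -0.20.

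The factors that switch on mitotic genes had the smallest median difference of the mitosis groups, -0.10 over 2 members. *Foxm1* was at 4.47, 3.01, 4.23 and 3.97 FPKM in CTR and 4.05, 2.97 and 4.87 FPKM in TG. The TG values spanned the whole CTR range, CTR 2 and TG 2 were the lowest in their groups, and the log2 difference was 0.00. It was -0.06 under upper-quartile scaling and -0.10 under quantile normalization. *Mybl2*, which encodes B-MYB, was at 3.15, 1.60, 2.59 and 2.52 FPKM in CTR and 2.27, 1.98 and 1.86 FPKM in TG. All TG papillomas lay between CTR 2 and CTR 4, with a log2 difference of -0.20.

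The mitotic kinesins, motors that build the spindle and move chromosomes, had a median difference of -0.21 over 4 members. *Kif20a*, needed for cytokinesis, was at 6.71, 4.71, 6.01 and 6.06 FPKM in CTR and 5.67, 4.67 and 5.84 FPKM in TG. *Kif2c*, a microtubule depolymerase at centromeres, was at 5.26, 3.37, 4.10 and 3.25 FPKM in CTR and 4.48, 2.92 and 4.01 FPKM in TG. The groups overlapped for both, with TG 2 the lowest papilloma, and the log2 differences were -0.11 and -0.06. *Kif11*, which pushes the spindle poles apart, differed by -0.32, and *Kif23*, of the central spindle, by -0.35.

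*Fam83d* (chr2:158768099-158786637), which recruits casein kinase 1 alpha to the spindle, had the largest difference of the 50 members. It was at 22.7, 18.8, 26.1 and 22.1 FPKM in CTR and 7.20, 8.46 and 17.9 FPKM in TG. TG 1 and TG 2 were far below every CTR papilloma, while TG 3 was just under CTR 2. The log2 difference was -1.07, with means of 22.5 ± 2.99 FPKM (SD, n = 4) and 11.2 ± 5.86 FPKM (SD, n = 3). Without TG 3 it was -1.46, and without TG 1 it was -0.83. The remaining members of the spindle and cytokinesis group were nearer to the rest of the list. *Hmmr*, a spindle protein and hyaluronan receptor, was at 11.4, 4.28, 6.38 and 7.98 FPKM in CTR and 5.27, 5.51 and 8.98 FPKM in TG. TG 3 was above all CTR papillomas but CTR 1, and the log2 difference was -0.14. *Nusap1*, *Racgap1*, *Ect2* and *Prc1*, which act on spindle microtubules or the cleavage furrow, differed by -0.14 to -0.31.

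Among the chromosome proteins, *Mki67* (chr7:135689788-135716379), which encodes the proliferation antigen Ki67, was at 27.8, 10.3, 15.9 and 22.1 FPKM in CTR and 10.4, 12.96 and 19.7 FPKM in TG. CTR 2 and TG 1 were level at the bottom, CTR 1 was the highest, and the means were 19.0 ± 7.56 FPKM (SD, n = 4) and 14.3 ± 4.81 FPKM (SD, n = 3). *Top2a*, the topoisomerase that untangles sister chromatids, was at 40.5, 15.3, 22.4 and 28.2 FPKM in CTR and 19.9, 16.5 and 25.4 FPKM in TG. All TG papillomas lay above CTR 2 and below CTR 4. The log2 differences were -0.35 for *Mki67* and -0.30 for *Top2a*. Without CTR 1 that of *Top2a* was -0.07, and without TG 3 that of *Mki67* was -0.60. The 3 centromere members, *Cenpa* (the centromeric histone), *Cenpe* (a kinetochore motor) and *Cenpf*, differed by -0.30, -0.26 and -0.27, and each overlapped between the groups.

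**Figure D5:**
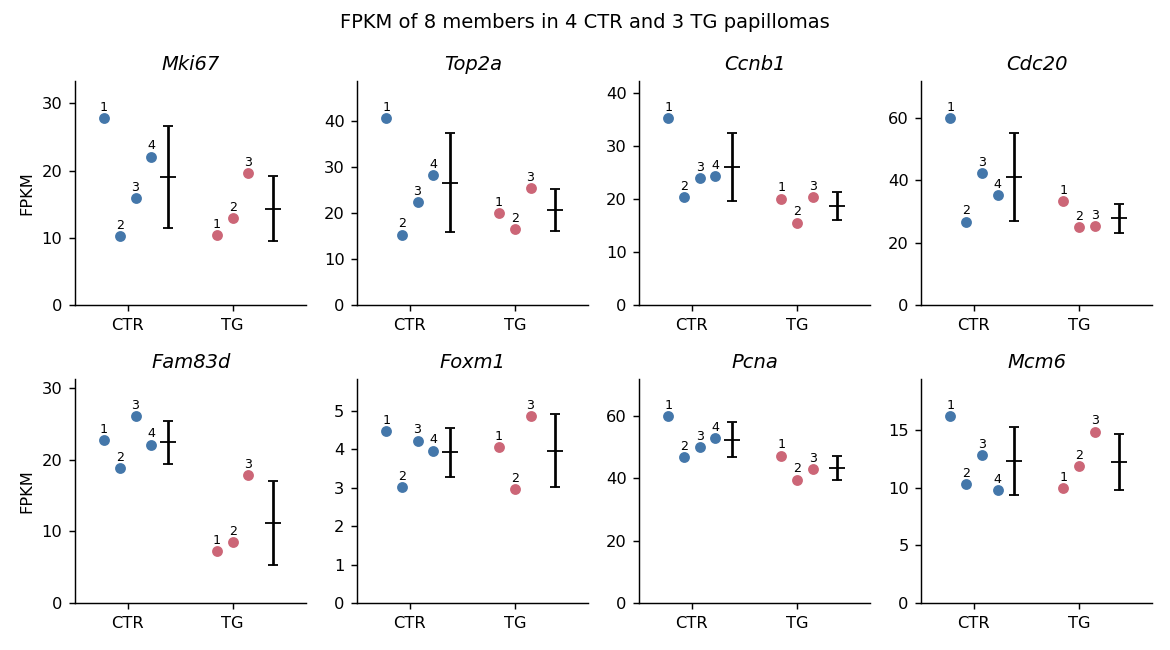
FPKM of 8 members in each CTR (blue) and TG (red) papilloma, numbered by mouse, with the mean and SD beside each group (n = 4 and n = 3) and axes from 0. The groups are apart for *Fam83d* and overlap for the other 7, where CTR 1 and TG 3 are mostly high and CTR 2 and TG 2 mostly low.

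In the replication class the MCM helicase, loaded on origins in G1 and fired in S phase, had a median difference of -0.09 over its 6 subunits. *Mcm2* was at 11.0, 5.52, 9.62 and 10.5 FPKM in CTR and 7.84, 6.46 and 11.0 FPKM in TG. *Mcm5* was at 19.2, 8.11, 14.2 and 15.2 FPKM in CTR and 15.4, 10.5 and 14.0 FPKM in TG. All TG values of both subunits lay above CTR 2, and the log2 differences were -0.10 and -0.05. *Mcm6* was at 16.2, 10.3, 12.8 and 9.77 FPKM in CTR and 9.98, 11.9 and 14.8 FPKM in TG. All TG values lay within the CTR range, the mean was 12.3 FPKM in CTR and 12.2 FPKM in TG, and the log2 difference was 0.01. It was -0.06 under upper-quartile scaling and -0.05 under quantile normalization. *Mcm7* differed most among the subunits, by -0.27. *Mcm3* and *Mcm4* differed by -0.18 and -0.07.

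The genes that license and fire origins had a median difference of -0.31 over 5 members. *Cdt1*, which brings the helicase to origins, was at 7.98, 6.64, 7.54 and 8.63 FPKM in CTR and 5.91, 6.47 and 5.74 FPKM in TG. All TG papillomas were below all CTR papillomas, with TG 2 close under CTR 2, and the log2 difference was -0.32. *Cdc6*, its partner in loading, was the lowest member of the list, at 1.32, 0.660, 0.850 and 1.23 FPKM in CTR and 0.833, 0.801 and 1.22 FPKM in TG. All TG values lay within the CTR range and the log2 difference was -0.05. *Cdc45*, which joins MCM and GINS in the active helicase, was at 5.86, 3.04, 4.11 and 5.58 FPKM in CTR and 4.01, 2.99 and 3.45 FPKM in TG. Only CTR 2 lay among the TG values, and the log2 difference was -0.34. The GINS subunits did not follow each other. *Gins1* was at 6.68, 4.22, 4.87 and 6.18 FPKM in CTR and 5.52, 4.00 and 3.52 FPKM in TG, while *Gins2* was at 2.49, 3.55, 3.15 and 4.21 FPKM in CTR and 4.56, 2.82 and 2.35 FPKM in TG. CTR 1 was the highest CTR papilloma for *Gins1* and the lowest for *Gins2*, and TG 1 was the highest of all for *Gins2*. The log2 differences were -0.31 and -0.07.

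*Pcna*, the sliding clamp that holds polymerases on DNA, was the most abundant member. It was at 59.97, 46.8, 50.01 and 52.8 FPKM in CTR and 47.3, 39.5 and 42.9 FPKM in TG. Only TG 1 and CTR 2 crossed, by a small margin, and the means were 52.4 ± 5.60 FPKM (SD, n = 4) and 43.2 ± 3.87 FPKM (SD, n = 3), with a log2 difference of -0.27. *Rfc4*, a subunit of the clamp loader, differed by -0.30, with CTR values of 8.69 to 11.0 FPKM and TG values of 6.11 to 8.54 FPKM. Its groups were apart only by the gap between 8.54 and 8.69 FPKM.

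The 3 genes of nucleotide supply had a median difference of -0.20. *Rrm2*, the S-phase subunit of ribonucleotide reductase, was at 23.3, 23.8, 23.5 and 31.8 FPKM in CTR and 21.3, 23.0 and 21.6 FPKM in TG. All TG values were below all CTR values, yet CTR 1 to 3 were within a narrow range just above TG 2, and CTR 4 stood alone. The log2 difference was -0.20, and without CTR 4 it was -0.10. *Tyms*, which makes thymidylate, was at 4.47, 3.06, 5.27 and 4.65 FPKM in CTR and 4.58, 2.02 and 3.52 FPKM in TG. TG 1 was within the upper CTR values and TG 2 was the lowest of all, with a log2 difference of -0.36. This difference rested on TG 2, since it was -0.08 without that papilloma. *Rrm1*, the constitutive subunit of the reductase, differed by -0.18.

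The activator E2F factors were scarce. *E2f1* was at 1.66, 0.940, 2.19 and 1.79 FPKM in CTR and 1.94, 0.928 and 1.79 FPKM in TG. *E2f2* was at 5.05, 2.13, 4.19 and 2.61 FPKM in CTR and 2.69, 2.04 and 3.98 FPKM in TG. For both, CTR 2 and TG 2 were the lowest papillomas of their groups and all others overlapped, with log2 differences of -0.07 and -0.20.

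The pattern depended on single papillomas. The median difference of the mitosis members was -0.45 without TG 3 and -0.18 without TG 2, and it was -0.15 without CTR 1 and -0.41 without CTR 2. For the replication members it was -0.28 without TG 3, -0.06 without TG 2, -0.12 without CTR 1 and -0.33 without CTR 2. The number of members with every TG papilloma below every CTR papilloma, 5 of 50 with all papillomas, was 11 without TG 3, beside 8.97% of all genes in that setting. It was 13 without TG 1 (7.24% of all genes), 17 without CTR 2 (4.88%) and 7 without CTR 3 (2.94%). The number with a lower mean in TG was 49 without TG 3, where 53.9% of all genes were lower, against 40.0% with all papillomas. It was 42 without TG 2 (34.99% of all genes) and 42 without CTR 1 (37.1%). The part of muscle, stroma and leukocytes of TG 3 in these values was not tested.

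Keratinocyte markers moved as well. Relative to the CTR mean, the 8 basal markers averaged -0.04, -0.18, -0.02 and 0.25 on the log2 scale in CTR 1 to 4 and 0.05, 0.07 and 0.63 in TG 1 to 3, and all 8 had a higher mean in TG. The members' average minus the basal average was 0.36, -0.20, 0.03 and -0.20 in CTR and -0.27, -0.57 and -0.69 in TG, so on this scale every TG papilloma was below every CTR papilloma. For TG 3 the scale is uncertain: its basal average less the shift of all genes was 0.33, and its summed basal level, 6901 FPKM, was below those of CTR 2 to 4, at 8824, 9356 and 9912 FPKM. Against the basal list the median difference was -0.55 for mitosis and -0.44 for replication. The 8 suprabasal and cornified markers summed to 7432 to 11740 FPKM in CTR, to 12378 and 12094 FPKM in TG 1 and TG 2, and to 4356 FPKM in TG 3. The 4 neutrophil markers summed to 606.6 to 1810 FPKM in CTR and 1666 to 4221 FPKM in TG, and all 4 had a higher mean in TG. The part of these cells in the members' values was not tested.

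Other genes of the same processes, listed by function and not members, were also lower on average. These lists too were made with earlier results of these papillomas known, and their genes followed the same mice. CTR 1 held the highest CTR value for 80.0% of the further mitosis genes and 63.1% of the further replication genes, beside 34.5% of all genes. The lists are therefore not independent support. Of 100 further mitosis genes tested, 91 were lower and 9 higher in TG, with a median difference of -0.22 beside 0.06 for all genes. By limma, 0 passed an adjusted p of 0.05 in either direction, and at an unadjusted p under 0.05 there were 6 of the 100 lower, beside 1.96% of all genes, and 0 higher. Without CTR 1 or without TG 2 the number lower was 0, beside 195 and 122 of all 12299 genes. Without CTR 3 or without CTR 4 it was 1, beside 134 and 193 of all genes. For 2 of the 100, near the 2.23% seen over all genes, every TG papilloma was below every CTR papilloma. They were *Ska1* (kinetochore-microtubule attachment) and *Cdc25c* (the phosphatase that activates Cdk1). *Ska1* was at 1.86, 1.65, 1.44 and 1.57 FPKM in CTR and 1.02, 0.633 and 1.255 FPKM in TG, a log2 difference of -0.55 ± 0.22 (SE; adjusted p = 0.705, limma). *Cdc25c* was at 4.78, 3.75, 3.63 and 3.77 FPKM in CTR and 3.22, 2.62 and 2.82 FPKM in TG, a log2 difference of -0.40 ± 0.17 (SE; adjusted p = 0.726, limma).

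Of 84 further DNA replication genes tested, 74 were lower and 10 higher, with a median difference of -0.20. Limma called 0 in either direction after adjustment, and 4 lower and 0 higher at an unadjusted p under 0.05, beside 1.96% and 4.86% of all genes. The number lower was 9 without CTR 2 and 7 without TG 3, beside 272 and 539 of all 12299 genes. It was 2 without CTR 1 or without CTR 4, beside 195 and 193, and 1 without TG 2, beside 122. The groups were apart for 4 of the 84, all lower in TG, beside 2.23% of all genes. *Chaf1b*, of the complex that places histones behind the fork, was the tightest, at 7.86, 7.58, 7.55 and 7.95 FPKM in CTR and 5.50, 5.78 and 5.38 FPKM in TG. Its log2 difference was -0.45 ± 0.14 (SE; adjusted p = 0.646, limma), and both groups varied little. *Tk1*, thymidine kinase of S phase, was at 31.1, 25.9, 34.5 and 26.4 FPKM in CTR and 24.3, 14.3 and 17.97 FPKM in TG, with a log2 difference of -0.65 ± 0.21 (SE; adjusted p = 0.653, limma). *Tipin*, of the fork protection complex, differed by -0.45 ± 0.17 (SE; adjusted p = 0.702, limma). *Pola2*, of the primase-polymerase complex, differed by -0.27 ± 0.15 (SE; adjusted p = 0.813, limma). None of the 4 passed the adjusted threshold.

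The regulators of these genes that are not members, namely RB family, other E2F and DP, MuvB and NF-Y genes with *Myc* and a few others, stood closer to all genes. Of 23 tested, 14 were higher and 9 lower in TG, with a median difference of 0.06, the same as over all genes. Limma called 0 of them in either direction after adjustment and 0 at an unadjusted p under 0.05, and for none were the groups apart. The sign of this median was not stable: it was -0.02 without TG 3, where all genes had -0.03, -0.03 without CTR 2, where all genes had 0.01, and -0.08 under quantile normalization, where all genes had -0.03.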

How the data were processed

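Papillomas of 4 CTR and 3 TG mice were compared. Per the labels and the study's methods, the authors prepared stranded libraries from polyA+ RNA and aligned single reads to GRCm38/mm10 with TopHat2 2.0.4, Bowtie 0.12.7 and SAMtools 0.1.16. They deposited FPKM values per gene from Cufflinks 1.3.0 with a UCSC annotation, each with a confidence interval; how reads of overlapping loci were split is not given in the sources used here. Printed loci are on GRCm38, from the files and counted from 1. The labels and the methods name different RNA kits. Comparisons by Cuffdiff were not used here.

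Each file lists 23746 entries. Entries sharing a symbol were summed (239 symbols), and 162 symbols with a failed estimate in any file were left out, giving 23122. Depth was inferred from the intervals, which cover counting error only. FPKM was put on the log2 scale after adding 0.5, which understates changes of low genes. Genes averaging 0.5 FPKM or more were fitted with limma 3.58.1 in R 4.3.3, with a variance trend, Benjamini-Hochberg adjustment and a threshold of 0.05, after the fit was tested on simulated data. Python 3.11.15, numpy 2.4.6, pandas 2.3.3, scipy 1.17.1 and matplotlib 3.10.9 were used for the rest.

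Members and lists were chosen with earlier results of these data known, so members have no p-values. Members given in full were 13 fixed by name and, in each class, the 4 highest and 4 lowest log2 differences. From the other lists, up to 4 genes per direction with the smallest p among those whose groups do not overlap were named. Settings tried were other pseudocounts, filters, scalings, variance models, weights, a replicate block, the highest entry of a symbol, the 5 papillomas of lower depth, and leaving out each papilloma.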

Additional observations from a re-analysis of the deposited data

Results flagged for a closer look

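Among the 4 CTR papillomas, 2 members had a single value far from the other 3. *Rrm2* was at 31.8 FPKM in CTR 4, and the nearest CTR papilloma was at 23.8 FPKM. *Rfc4* was at 11.0 FPKM in CTR 1, and the nearest was at 8.74 FPKM. In both, the gap took up most of the range of the group (0.941 and 0.980 of it). Both genes are among the 5 members whose groups did not overlap. The rule was applied to 54 groups of values and chance alone would flag about 1 group in 20.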

How the results depend on the processing

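Small values changed sign. The regulators' median did so under 5 alternatives, as did the differences of 9 of 32 named genes under at least 1: *Cdc6*, *E2f1*, *Foxm1*, *Gins2*, *Hmmr*, *Kif2c*, *Mcm2*, *Mcm5* and *Mcm6*. The medians of the mitosis and replication members stayed negative under every alternative run. Relative to the median of all genes, a setting chosen after the data were seen, they were -0.36 and -0.25. Of the summary values recomputed, 405 stayed within 1.5 times or 1 SD of the value given and 49 did not; the cause was not tested. Limma sample quality weights moved counts most: 49 genes higher and 36 lower after adjustment, 1161 and 1248 at an unadjusted p under 0.05, and, of the unadjusted calls, 1 further mitosis gene higher and 42 lower, 31 further replication genes lower and 2 regulators lower. Upper-quartile scaling gave 418 genes lower at an unadjusted p, among them 10 further mitosis and 7 further replication genes, and quantile normalization gave 551, 15 and 17. It also set 5 mitosis members with every TG papilloma below every CTR papilloma, beside 5.54% of all genes. Without a filter on low values 961 genes, and 1 further mitosis gene, were higher at an unadjusted p. With a mean FPKM of at least 2, 2 further mitosis genes were lower, beside 191 of all 9490 genes kept in that setting. In the 5 papillomas of lower depth 1 gene was higher after adjustment, and 3 further mitosis genes were lower at an unadjusted p, beside 174 of all 12299 genes. There 9 mitosis and 5 replication members had every TG papilloma below every CTR papilloma, beside 8.16% of all genes. Relative to the basal keratinocyte list the replication median was -0.44.

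Leaving out each papilloma in turn gave 0 to 2 genes higher and 0 to 1 lower after adjustment, and 364 to 825 higher and 122 to 539 lower at an unadjusted p. The extremes came without CTR 3, TG 1, TG 2 and TG 3. It gave 2 to 11 mitosis and 3 to 6 replication members with every TG papilloma below every CTR papilloma, beside 2.94% to 8.97% of all genes. Further mitosis genes at an unadjusted p were 0 to 1 higher and 0 to 8 lower, and further replication genes 1 to 9 lower. The medians ran from -0.45 to -0.15 for mitosis and from -0.33 to -0.06 for replication members.

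The groups share replicate numbers, but nothing says that a number marks a litter or a day. Same-numbered papillomas did not deviate together (correlations over genes of -0.19, 0.04 and -0.15 for numbers 1 to 3). Papillomas with unlike numbers had correlations from -0.22 to 0.31. These values cannot settle whether a number marks a litter or a day, and the papillomas were compared as unpaired. With the replicate block, which drops CTR 4 from the contrast, 505 genes were higher and 170 lower at an unadjusted p, 0 further mitosis genes and 1 further replication gene were lower, and the medians were -0.27 for mitosis and -0.13 for replication members.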
